A study of Mus musculus with 4 samples.

Results

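The complement and acute-phase genes C1ra, C1s1, C4b, C3, Cfb, Serping1, Cd55, Lcn2 and Saa3 were followed in fibroblasts taken out of mouse mammary tumours. These 9 genes were chosen by name, with earlier results of these data known. All 9 were present among the 22456 genes of the deposited table and had levels high enough to be tested. Fibroblasts from tumours of cancer cells that had been pre-treated with the compound GSK269962A held less Saa3, Lcn2, Cd55, Cfb and C4b transcript in both libraries than either control library, and more Serping1, by 1.13-fold to 1.56-fold. C3, C1ra and C1s1 overlapped between the groups. None of the 9 differences passed the test after adjustment over all genes.

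Complement is a cascade of blood and tissue proteins that marks surfaces for removal and calls in leukocytes. In the classical pathway the protease C1r activates C1s, which cleaves C4 and C2, factor B serves the alternative pathway, and both routes converge on cleavage of C3. The C1 inhibitor encoded by Serping1 and the membrane protein CD55 restrain these steps, while lipocalin 2 (Lcn2) and serum amyloid A3 (Saa3) are secreted acute-phase proteins of inflamed tissue. Stromal fibroblasts are known to make many of these components outside the liver, and inflammatory cytokines of the interleukin-1 and interleukin-6 families raise several of them.

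The tumours were grown in Balb/cAnN mice from 4T1, a mammary carcinoma line of that strain injected into the fat pad, and fibroblasts were collected 8 days later. The 4T1 cells of the GSK group had been kept for 5 days in 5 µM GSK269962A and those of the control group in its solvent DMSO. Each group has 2 libraries, named here DMSO 1 and 2 and GSK 1 and 2, and the compound was given to the cancer cells, not to the mice. The cells are the mesenchymal fraction left after magnetic depletion of cells bearing CD45, CD31, CD326 or human CD2, so they were selected by what they lack and may hold more than 1 mesenchymal type. Age and sex of the mice and the number of animals behind a library are not given in the labels, and a p-value here covers only the spread among these libraries, which may be technical. Expression is given as the authors normalised it, in log2 units. Read counts were not analysed here, and library depth is unknown. Differences on this scale are understated for weakly expressed genes.

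In log2 units not divided by gene length, the 10 fibroblast markers averaged 15.25 to 15.34 over the 4 libraries, and 8 pericyte and smooth muscle markers 11.22 to 11.66. The 9 neutrophil markers averaged 0.60 to 0.62, the 10 macrophage and monocyte markers 3.20 to 3.23 and the 7 epithelial and 4T1 markers 3.68 to 3.78. Single genes stood well above these averages: the highest were Mpo at 3.84, Csf1r at 8.28 and Krt19 at 8.82 in mean level, in that order of lists. The endothelial list averaged 5.29 to 5.40, with Pecam1 at 3.31 and Flt1 at 10.84 in mean level, and the pan-leukocyte list 4.84 to 5.15, with Ptprc at 3.81 and Cd53 at 11.03. Flt1 and Cd53 were higher in GSK, by 0.51 and 0.91 (unadjusted p = 0.0083 and 0.00386, limma adjusted p = 0.15 and 0.116).

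Per kilobase of exon, Serping1 and C3 were the most abundant of the 9 transcripts. Serping1 stood at 13.77 (log2 level per kilobase, mean of 4 libraries; lowest 13.68, highest 13.86) and C3 at 13.55 (13.37 to 13.65), above 99.6% and 99.5% of the 14508 tested genes with a known length. Those ranges did not overlap, although the gap between the means was only 0.22. Saa3 (11.87), C1ra (11.82), C1s1 (11.76) and Cfb (11.62) formed a middle group in which each neighbour's range overlapped the next, and the range of Cfb also overlapped that of C4b at 11.32. Cd55 followed at 8.24 and Lcn2 at 5.59, each clear of its neighbours. Lcn2 was the only one of the 9 in the lower part of the distribution, above 37.5% of genes. Saa3 had the widest range over the libraries, from 11.34 in GSK 1 to 12.34 in DMSO 1, and its rank of 3 held in 3 of the 4 libraries. These levels depend on the length used. Per kilobase of the longest transcript, Serping1 stood at 14.17, C3 at 13.55 and Lcn2 at 6.53, and C1s1 (11.85) stood above C1ra (11.82).

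**Figure D1:**
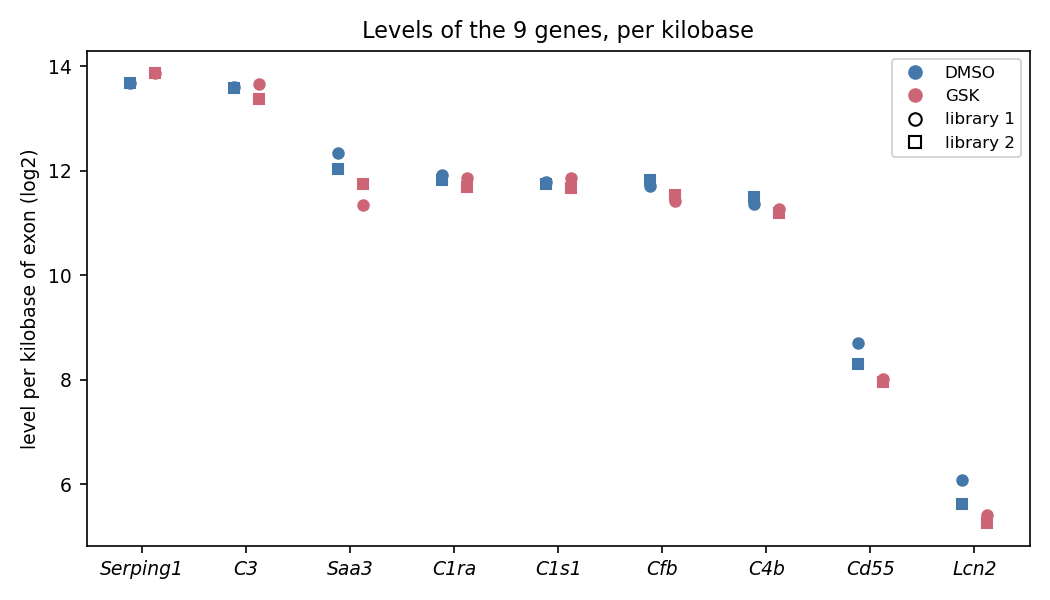
Level of each of the 9 genes per kilobase of exon (log2, vertical axis) in the 4 libraries, DMSO in blue and GSK in red, with library 1 as circles and library 2 as squares. Serping1 and C3 lie near 13.77 and 13.55, 5 genes lie between 11.32 and 11.87, and Cd55 and Lcn2 lie at 8.24 and 5.59.

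The comparison of GSK with DMSO asks whether the fibroblasts of a tumour differ when its cancer cells were pre-treated. Limma's moderated test with Benjamini-Hochberg adjustment over 14548 genes called 41 of them (0.282%) at an adjusted p under 0.05, and none of the 9 complement and acute-phase genes. At an unadjusted p under 0.05, 6 of the 9 genes qualified, 5 lower and 1 higher, against 16% of all genes tested. These genes were chosen with results of these data known, so their count is a description and not a test. Among all 14548 genes, 7199 were higher and 7349 lower, with 1147 higher and 1183 lower at an unadjusted p under 0.05, and the counts for gene lists in the text stand against these. With any 1 library left out, the unadjusted p of Serping1 was no longer under 0.05 (0.0709 to 0.156), nor was that of C4b without DMSO 2 (0.199), without GSK 2 (0.105) or after quantile normalisation (0.079). Both GSK libraries lay below both DMSO libraries for 5 of the 9 genes, where 24.5% of all genes did so, and above them for 1 gene, Serping1, where 24.1% did so. The median change of the 9 genes was -0.19 (log2), and that of all genes tested was -0.001. Without DMSO 2, Cd55 and Lcn2 passed the test (limma adjusted p = 0.0106 and 0.0166), and 194 genes were called in all. In bulk samples such as these, fewer cells of a type and less RNA per cell cannot be told apart.

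**Figure D2:**
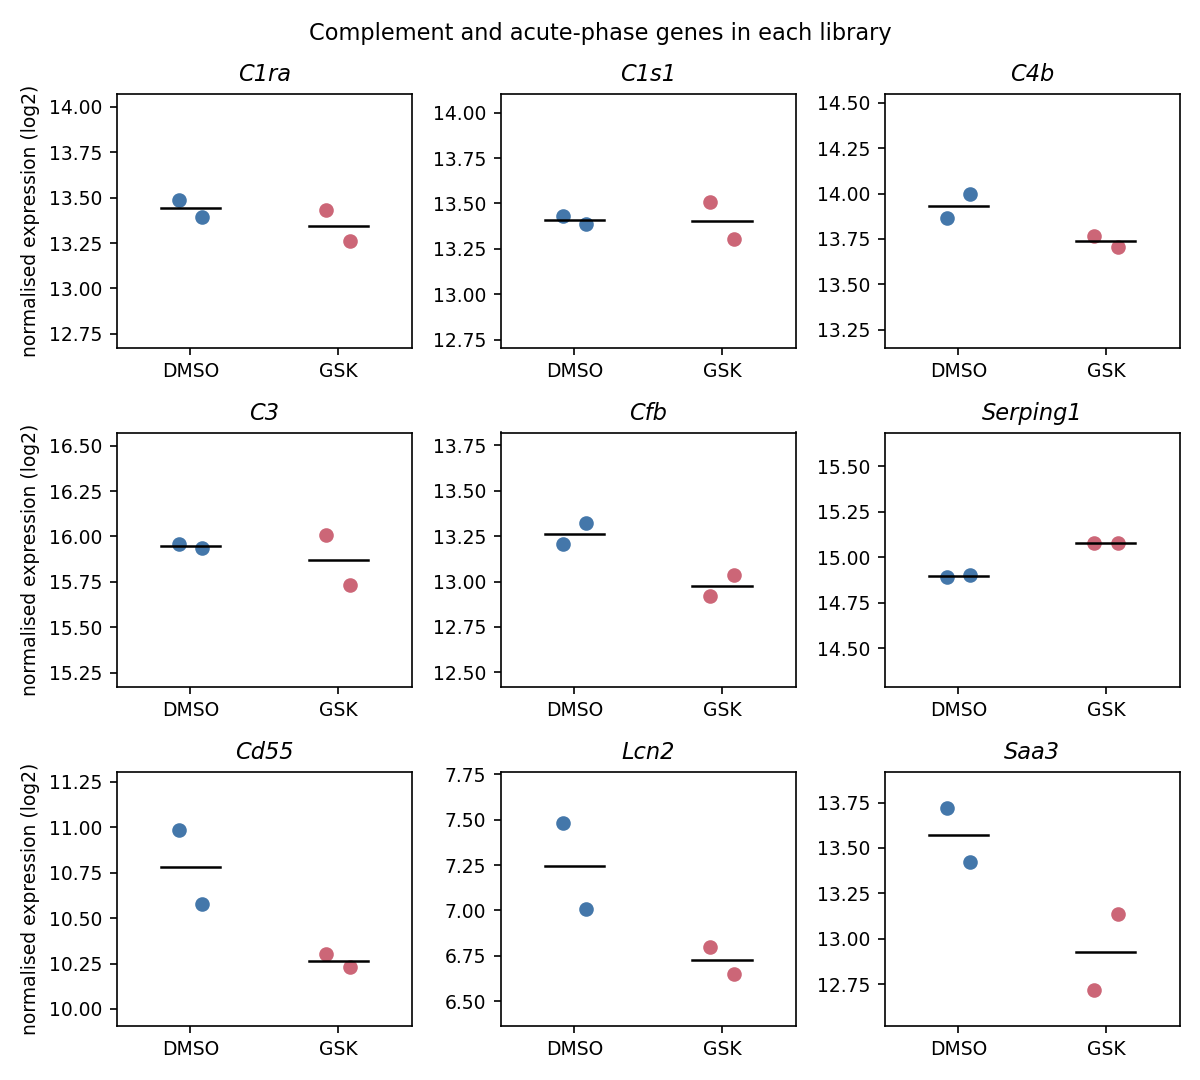
Normalised expression (log2, vertical axes, each spanning the same width) of the 9 genes in the DMSO libraries (blue) and GSK libraries (red), with library 1 left and library 2 right in each pair and the black line at the mean of the pair. The groups are apart for C4b, Cfb, Serping1, Cd55, Lcn2 and Saa3 and overlap for C1ra, C1s1 and C3.

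The classical pathway starts with C1, in which the recognition protein C1q carries the proteases C1r and C1s. C1ra (ENSMUSG00000055172, GRCm38 chromosome 6, 124512405 to 124523443, plus strand) was at 13.49 and 13.40 in DMSO 1 and 2 and at 13.43 and 13.26 in GSK 1 and 2. C1s1 (ENSMUSG00000038521, chromosome 6, 124530345 to 124542359, minus strand) was at 13.43 and 13.39 in DMSO and at 13.51 and 13.31 in GSK. For both genes 1 GSK library lay among or above the DMSO values and the other below them. The change of C1ra was -0.09 ± 0.07 (log2, SE; limma 95% interval -0.27 to 0.08; adjusted p = 0.577) and that of C1s1 -0.004 ± 0.077 (-0.19 to 0.18; adjusted p = 0.988). The direction of C1s1 was not stable, at 0.04 after quantile normalisation and 0.10 without GSK 2. The paralogs C1rb and C1s2, whose transcripts match C1ra at 97.9% over 2432 bases and C1s1 at 96.0% over 2644 bases, stood at 9.53 and 10.14 in DMSO, and reads could be divided between each pair. Summed on the linear scale, C1ra with C1rb differed by -0.09 and C1s1 with C1s2 by -0.009. The 3 chains of C1q, a product mainly of macrophages, were below the level needed for testing in all libraries, with C1qa at 2.93 to 2.98, C1qb at 2.15 to 2.18 and C1qc at 2.94 to 2.97.

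C1s cleaves C4 and C2, whose fragments together form the classical C3 convertase. C4b (ENSMUSG00000073418, chromosome 17, 34728380 to 34743882, minus strand) was at 13.87 and 14.00 in the DMSO libraries and at 13.77 and 13.71 in the GSK libraries. The groups did not overlap, with a gap of less than the distance between the DMSO libraries. Its change was -0.19 ± 0.07 (limma 95% interval -0.36 to -0.03; unadjusted p = 0.0269, adjusted p = 0.24). The neighbouring copy C4a, whose transcript matches C4b at 96.0% over 5378 bases, was at 9.44 and 9.58 in DMSO and at 9.30 and 9.23 in GSK. The log2 ratio of C4a to C4b varied little, at -4.42 in both DMSO libraries and at -4.46 and -4.48 in the GSK libraries. Reads of C4b assigned to C4a cannot be told apart from expression of C4a. C2 (ENSMUSG00000024371, chromosome 17, 34862604 to 34898265, minus strand) went the other way, with 11.55 and 11.70 in DMSO and 11.85 and 11.97 in GSK, a change of 0.29 ± 0.07 (limma adjusted p = 0.133). None of the 7 tested classical pathway genes passed, with 1 higher and 2 lower at an unadjusted p under 0.05.

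C3 is the central component, and factor B bound to its fragment C3b is cleaved to form the alternative convertase. C3 (ENSMUSG00000024164, chromosome 17, 57203970 to 57228136, minus strand) was at 15.96 and 15.94 in DMSO and at 16.01 and 15.73 in GSK. GSK 1 was the highest and GSK 2 the lowest of the 4 libraries. The change of -0.07 ± 0.11 had a limma 95% interval from -0.34 to 0.19 (adjusted p = 0.785), and its sign turned after quantile normalisation (0.01) and without GSK 2 (0.06). Cfb (ENSMUSG00000090231, chromosome 17, 34856374 to 34862518, minus strand), which encodes factor B, was at 13.21 and 13.32 in DMSO and at 12.92 and 13.03 in GSK. Both GSK libraries were below both DMSO libraries, and the gap was wider than the distance within either pair. The change of Cfb was -0.29 ± 0.07 (limma 95% interval -0.45 to -0.13; unadjusted p = 0.00451, adjusted p = 0.123), the smallest unadjusted p of the 9 genes. Properdin (Cfp), which stabilises the alternative convertase, was at 6.12 in DMSO and 6.06 in GSK, and factor D (Cfd), the protease that activates factor B, was at 1.77 and not tested.

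Cfb and C2 are neighbours on the same strand, 85 bases apart, and their estimates had opposite signs. Another annotated gene, Gm20547, spans both: its transcripts share 2248 bases at 100% identity with Cfb and 1334 bases at 99.9% with C2. Gm20547, named after its values were seen, was listed at 8.05 and 7.82 in DMSO and at 8.50 and 8.65 in GSK, and its value is uncertain because reads could be divided among the 3 genes. It held 3.47% of the sum with Cfb and 8.13% of the sum with C2. With Gm20547 added, the difference was -0.26 for Cfb and 0.32 for C2. Shares this small could hardly turn either sign, so the sums cannot show how reads were divided among the 3 genes.

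**Figure D3:**
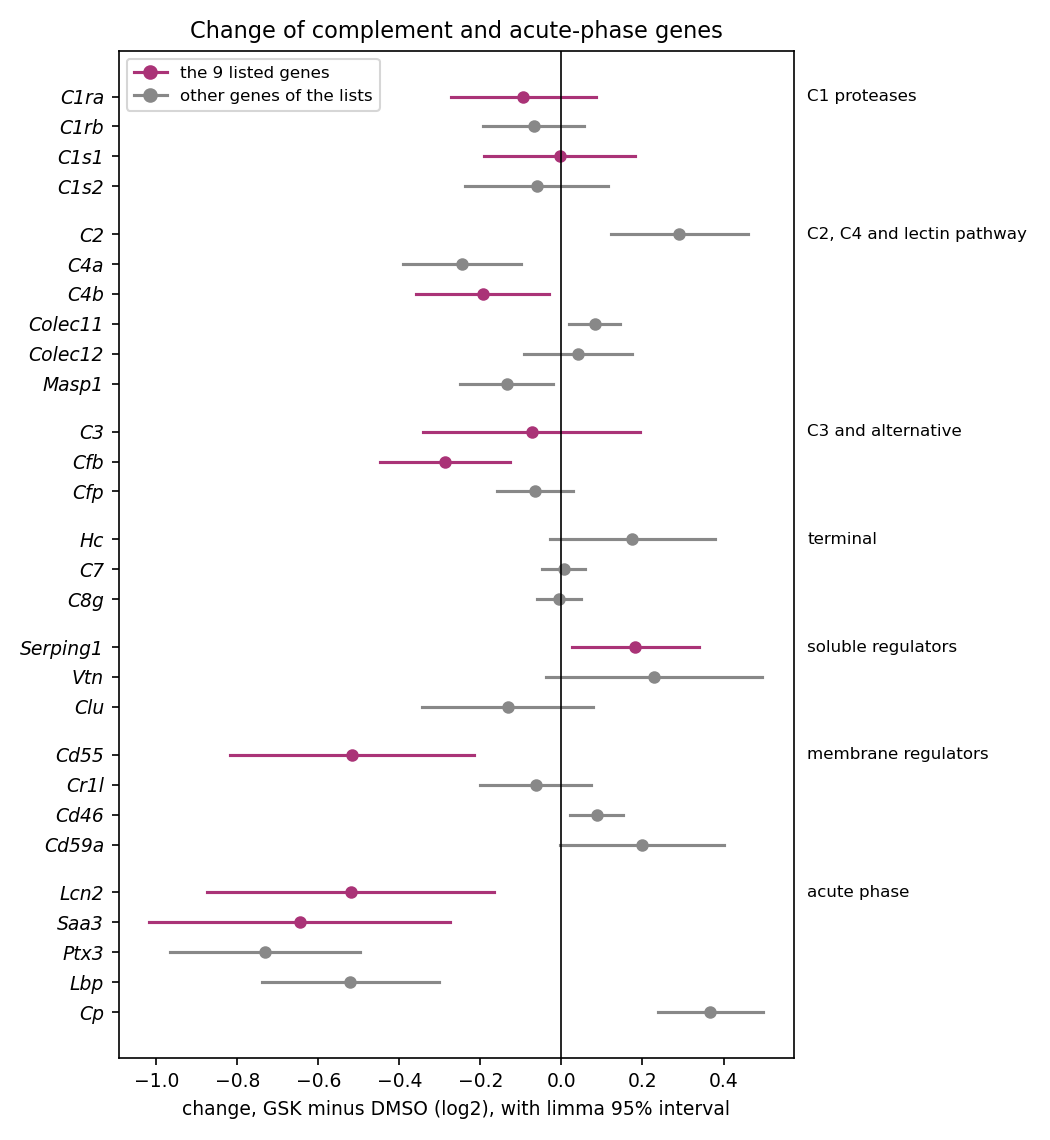
Change between GSK and DMSO (log2, horizontal axis) with limma's 95% interval for the 9 genes (purple) and for other genes of the complement and acute-phase lists (grey), ordered by role. Cd55, Lcn2 and Saa3 lie between -0.52 and -0.65, while Serping1 lies at 0.18; no gene shown passed the adjusted test.

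Of the soluble regulators, the C1 inhibitor stood higher in GSK. Serping1 (ENSMUSG00000023224, chromosome 2, 84765387 to 84775444, minus strand), whose product inactivates C1r and C1s, was at 14.89 and 14.90 in DMSO and at 15.08 in both GSK libraries. The 2 libraries of each group were nearly equal and the groups were apart. The change was 0.18 ± 0.06 (limma 95% interval 0.02 to 0.34; unadjusted p = 0.0296, adjusted p = 0.249). Vitronectin (Vtn) was 0.23 higher and clusterin (Clu) 0.13 lower, neither with an unadjusted p under 0.05. Single libraries moved both: Vtn was at 0.052 without GSK 1 and 0.41 without GSK 2, and Clu at -0.015 without DMSO 2 and -0.25 without DMSO 1. Pericyte and smooth muscle markers moved the same way: 8 of 8 were higher in GSK, 4 of them at an unadjusted p under 0.05, and the list averaged 11.22 and 11.54 in DMSO and 11.62 and 11.66 in GSK. Of the pan-leukocyte markers, 4 of 4 tested were higher, but only Cd53 at an unadjusted p under 0.05, and Ptprc, the gene of the depleted CD45, differed by 0.07. The part of these markers in the value of Serping1 was not tested.

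Among membrane regulators, which protect a cell from complement on its own surface, CD55 speeds the decay of convertases. Cd55 (ENSMUSG00000026399, chromosome 1, 130439027 to 130462744, minus strand) was at 10.99 and 10.58 in DMSO and at 10.30 and 10.23 in GSK. DMSO 1 stood well above the other 3 libraries, and DMSO 2 was closer to the GSK libraries than to DMSO 1. The change was -0.52 ± 0.12, or 1.43-fold lower (limma 95% interval -0.82 to -0.22; adjusted p = 0.133), and it was -0.31 without DMSO 1 and -0.72 without DMSO 2. The pericyte and smooth muscle list was lowest in the same library in which Cd55 was highest, at 11.22 in DMSO 1 against 11.54, 11.62 and 11.66 in DMSO 2, GSK 1 and GSK 2, and its part in the value of Cd55 was not tested. The copy Cd55b, whose transcript matches Cd55 at 91.9% over 1157 bases, was not found among the genes with deposited values, and reads of the pair could be shared. Cr1l, the rodent regulator Crry, had means of 10.45 for DMSO and 10.38 for GSK (difference -0.06 ± 0.06, adjusted p = 0.627). Cd59a, which blocks the membrane attack complex, differed by 0.20 (adjusted p = 0.319; 0.11 to 0.29 with 1 library left out), and the weakly expressed Cd46 by 0.09 (adjusted p = 0.195). None of the 5 tested membrane regulators passed, with 1 higher and 1 lower at an unadjusted p under 0.05.

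The acute-phase genes Saa3 and Lcn2 had, with Cd55, the largest differences of the 9. Saa3 (ENSMUSG00000040026, chromosome 7, 46711998 to 46715700, minus strand) was at 13.72 and 13.42 in DMSO and at 12.72 and 13.13 in GSK. The groups were apart, and GSK 1 was far below GSK 2. The change was -0.65 ± 0.15, or 1.56-fold lower (limma 95% interval -1.02 to -0.27, unadjusted p = 0.00514, adjusted p = 0.129). It was -0.44 without GSK 1 and -0.85 without GSK 2. Saa3 was highest in DMSO 1, where the pericyte and smooth muscle list was lowest, and the part of that list in its value was not tested. The liver-type genes Saa1 (4.38 in DMSO, 4.31 in GSK) and Saa2 (1.79 and 1.77) were hardly expressed, and no transcript of another gene matched Saa3 at 90% identity or more over at least 200 bases.

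Lcn2 (ENSMUSG00000026822, chromosome 2, 32384633 to 32388252, minus strand), which binds bacterial siderophores, was at 7.48 and 7.01 in DMSO and at 6.80 and 6.65 in GSK. As for Cd55, DMSO 1 was the highest library and DMSO 2 lay nearer to GSK. The change was -0.52 ± 0.15 (limma 95% interval -0.87 to -0.17; adjusted p = 0.169), at -0.29 without DMSO 1 and -0.76 without DMSO 2. Lcn2 is also a product of neutrophils and of carcinoma cells. The neutrophil genes S100a8 and S100a9 were at 0.80 and 1.17 in mean level, and the neutrophil list summed to 4.61 to 4.63 in DMSO and 4.60 to 4.63 in GSK (log2 of the summed linear values). Of its 9 genes 8 were below the level needed for testing, where values shrink towards each gene's mean. The sum rests mainly on Mpo, at 3.84. These values therefore cannot tell whether the share of neutrophils differed between the groups. The epithelial and 4T1 list summed to 9.21 and 9.15 in DMSO and 9.03 and 8.83 in GSK. Of its 4 tested genes 3 were lower, 2 of them, Krt18 and Krt19, at an unadjusted p under 0.05. Krt19, at 8.82 in mean level, was the highest of the list, and its change was -0.29. Krt18 stood at 4.37 with a change of -0.07, and Epcam was the lowest at 0.32. The sum, taken on the linear scale, therefore rests mainly on Krt19. The part of this list in the value of Lcn2 was not tested, nor was that of the pericyte list, which was lowest in DMSO 1.

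Most of the other tested acute-phase genes were lower in GSK, and some were higher. Ptx3, a secreted pattern-recognition protein that binds C1q, was at 13.02 and 12.72 in DMSO and at 12.15 and 12.13 in GSK, a change of -0.73 ± 0.10 (limma adjusted p = 0.0546). Lbp, which carries bacterial lipopolysaccharide, was at 13.33 and 13.09 in DMSO and at 12.75 and 12.63 in GSK (difference of -0.52 ± 0.09, limma adjusted p = 0.0703). The copper protein ceruloplasmin (Cp) was at 10.06 and 10.07 in DMSO and at 10.49 and 10.37 in GSK (difference of 0.37 ± 0.05, limma adjusted p = 0.0576). Of the 17 tested acute-phase genes, Lcn2 and Saa3 included, none passed; 13 were lower and 4 higher, with 8 lower and 1 higher at an unadjusted p under 0.05, and the median change was -0.32. Ptx3 and Cp passed after centring each library on its median (limma adjusted p = 0.0471 and 0.04997). For Ptx3 and Lbp DMSO 1 was the highest library, and the size of the change depended on it. The change of Ptx3 was -0.58 without DMSO 1 and -0.88 without DMSO 2, and that of Lbp -0.40 and -0.64. The list of cytokine signals and transcription factors upstream of these genes held 20 tested members, 14 lower and 6 higher. At an unadjusted p under 0.05, 6 were lower and 0 higher. Of the list 1 gene, Lif, a cytokine of the interleukin-6 family, passed and was lower (limma adjusted p = 0.0199). The cytokine genes Il1a, Il1b and Osm differed by 0.11, 0.04 and 0.04, none with an unadjusted p under 0.05. Their mean levels were 6.16, 4.15 and 3.38, and differences at levels as low as those of Il1b and Osm are understated. The cytokine gene Tnf differed by -0.28 (limma unadjusted p = 0.00526, adjusted p = 0.13). Il6 (-0.70) and Nfkbiz, a nuclear cofactor of NF-kB (-0.36), had adjusted p-values of 0.114 and 0.113. The change of Il6 was -0.50 without DMSO 1 and -0.90 without DMSO 2. Lif itself missed the threshold without DMSO 1, with a change of -0.93.

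Among the 3 tested genes of the terminal pathway and the 4 of the lectin pathway none passed, with 1 higher and 1 lower at an unadjusted p under 0.05, both of the lectin pathway. Of the terminal pathway, Hc, which encodes C5, was at 9.46 and 9.23 in DMSO and at 9.59 and 9.46 in GSK (difference of 0.18 ± 0.08, limma adjusted p = 0.373), which was 0.062 without DMSO 2 and 0.29 without DMSO 1, while C7 and C8g lay at 3.78 and 3.35 with differences of 0.005 and -0.007. The scavenger collectin Colec12 was at 12.93 in DMSO and 12.97 in GSK. Masp1, a protease of the lectin pathway, differed by -0.14 (limma adjusted p = 0.243) and the collectin Colec11, at 3.87, by 0.08 (adjusted p = 0.2). All 5 listed complement receptor genes in the table were below the level needed for testing, the highest being Itgax at 2.23, and the receptors for C3a and C5a (C3ar1 and C5ar1) were at 2.07 and -0.99.

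Promoter windows of the members were read from RefSeq sequence (GRCm38.p6), which gave 7 windows for 6 of the 9 genes; C4b, Cfb and Serping1 had none. Each window covers the 250 bases before a transcription start and was searched on both strands for binding motifs of C/EBP (TTNNGNAA), STAT (TTCNNNGAA), AP-1 (TGANTCA) and, with a 10-letter consensus, NF-kB, the factor families best known for acute-phase genes; the motifs can overlap each other. C3 and Saa3 are shown because they had the most matches of the 6 genes; their differences between GSK and DMSO were -0.07 and -0.65. Capitals mark the C/EBP matches, 3 in C3 and 4 in Saa3. The C3 window lies at chr17:57228137-57228386 and the Saa3 stretch, the 226 bases that precede the start in both RefSeq and GENCODE, at chr7:46715701-46715926, both on the minus strand and written 5′ to 3′.
C3: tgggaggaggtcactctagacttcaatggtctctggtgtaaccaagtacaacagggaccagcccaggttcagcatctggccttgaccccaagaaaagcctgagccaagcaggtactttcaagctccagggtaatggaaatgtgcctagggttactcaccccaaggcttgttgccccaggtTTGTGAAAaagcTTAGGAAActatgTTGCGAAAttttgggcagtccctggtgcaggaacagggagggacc
Saa3: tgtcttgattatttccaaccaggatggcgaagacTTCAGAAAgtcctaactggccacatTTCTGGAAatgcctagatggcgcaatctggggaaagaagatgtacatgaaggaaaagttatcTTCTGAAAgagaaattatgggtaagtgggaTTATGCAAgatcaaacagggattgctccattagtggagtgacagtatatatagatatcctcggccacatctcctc
The C3 matches are packed within bases -70 to -38 before the start, and those of Saa3 lie from -216 to -92, counted from the RefSeq start, which for Saa3 lies past the end of the stretch shown. C1ra had 2 matches, Lcn2 had 1, the windows of C1s1 had 1 and 2, and Cd55 had none. Only 34 bases of the C1ra window and none of the Lcn2 window precede the gene start in GENCODE. The matches of C1ra and Lcn2 therefore lie inside the genes as GENCODE annotates them. The windows of C1s1 overlap, and its match TTAGGGAA was counted in both. A C/EBP match was present in 36.8% of the 32851 promoter windows of the table, so the presence of 1 is common. No window of the 6 genes held the NF-kB, STAT or AP-1 letters, which occurred in 7.3%, 7.0% and 6.7% of all windows. The matches are descriptions of letters in these windows.

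Ratios between partner genes within a library are not changed by shifting all log2 values of a library; the pairs were chosen after their values were seen and carry no test. The ratio of C1ra to C1s1 was 0.056 and 0.006 in DMSO and -0.075 and -0.043 in GSK, on the log2 scale. It spanned 0.13 over all 4 libraries, with both GSK values below both DMSO values. The ratio of C2 to Cfb was -1.66 and -1.62 in DMSO and -1.07 and -1.06 in GSK, a difference of 0.58 between group means whose SDs were 0.028 and 0.0088. Both GSK values of this ratio were above both DMSO values. The ratio of the inhibitor Serping1 to its target C1s1 was 1.46 and 1.51 in DMSO and 1.57 and 1.77 in GSK. That of Cd55 to Cr1l was 0.49 and 0.18 in DMSO and -0.13 and -0.10 in GSK. For Saa3 over C3 the spread was wider, with -2.23 and -2.51 in DMSO and -3.29 and -2.60 in GSK, so that GSK 2 lay near the DMSO libraries.

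**Figure D4:**
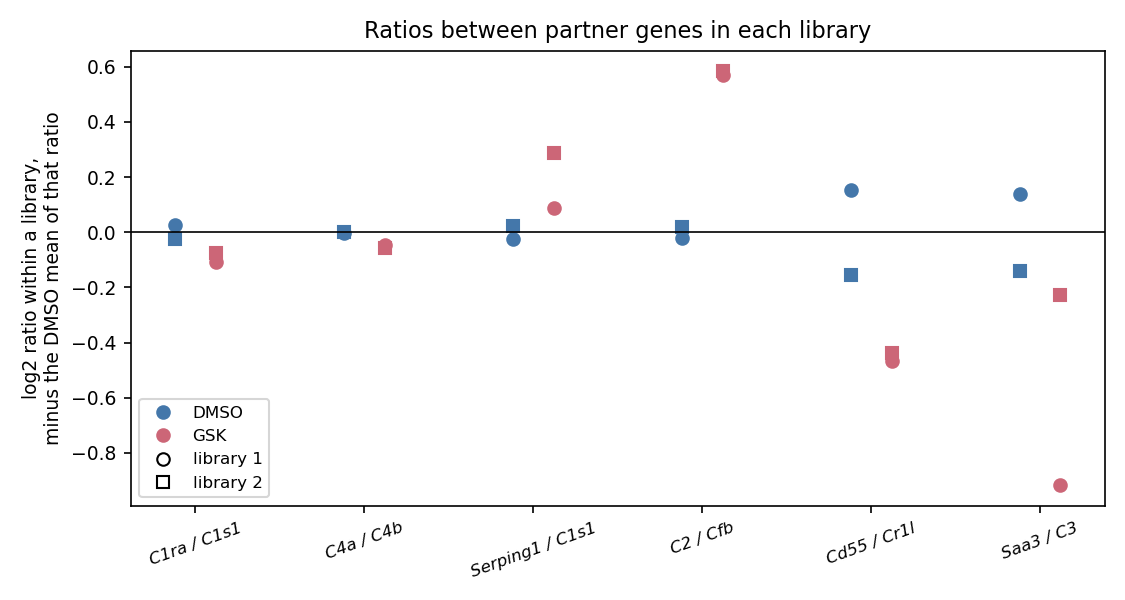
Log2 ratio of 2 genes within each library, minus the mean of that ratio in the DMSO libraries (vertical axis), for 6 pairs, with DMSO in blue, GSK in red, library 1 as circles and library 2 as squares. C2 over Cfb is higher in both GSK libraries, by 0.58 in the mean. C1ra over C1s1 and C4a over C4b span only 0.13 and 0.06, and are lower in both GSK libraries.

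Genes whose 4 values, centred on the gene's mean, lay nearest to those of Cfb and Serping1 were looked up among 11014 protein-coding genes with a mean of at least 50 on the linear scale. Nearest to Cfb were Cacna1a, a calcium channel subunit, Sfrp1, a secreted Wnt modulator, and Flnc, filamin C, at Euclidean distances of 0.028, 0.031 and 0.035 (log2 units over 4 libraries). Nearest to Serping1 were Rai14, Pld1, a phospholipase, and Mxra8, at 0.005, 0.010 and 0.012. With 4 libraries, many genes share a profile, and the nearest genes are given as a description.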

How the data were processed

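RNA was sequenced from tumour fibroblasts in 4 libraries, 2 per group, grouped by the treatment in the sample titles. The authors deposited 1 table of normalised log2 values for Ensembl mouse genes; the tools RSEM (1.2.29), DESeq2 (1.12.4) and Bowtie2 are named in the submitters' processing notes, as are builds GRCh38 and mm10, with roles, transformation and annotation not given in the sources used here. That the values are log2 was taken from their range. Values shrink towards each gene's mean at low levels (median range over the libraries 0.113 for tested genes, 0.018 below the filter).

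Identifiers were matched to GENCODE M21 on GRCm38 (22335 matched). Limma 3.58.1 in R 4.3.3 was fitted on every gene averaging 3.32 or more (log2 of 10), with the group only, a variance trend, two-sided p-values, Benjamini-Hochberg adjustment and a threshold of 0.05; it was tested on simulated data. An exact permutation of 2 against 2 libraries cannot give a p below 0.333 and was not used. ± gives limma's SE. Levels per kilobase subtract log2 of the union of exons. Shared sequence was found with blastn 2.17.0. Beside the 9 genes, the text names up to 3 genes of each role list with the smallest p and paralogs of the 9. Some others, such as Il1a, Il1b, Osm and Tnf, were named outside this rule. The 9 genes and the lists were chosen with earlier results of these data known. Alternatives were other filters, scalings and variance priors, a replicate block and each library left out. A gene of the lists is not reported here.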

Additional observations from a re-analysis of the deposited data

How the results depend on the processing

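With each library left out in turn, genes called ran from 7 (without DMSO 1) to 194 (without DMSO 2), members called from 0 to 2 (Cd55 and Lcn2, without DMSO 2), and called genes of the complement, acute-phase and upstream lists from 0 to 10, beside 41, 0 and 1 with all libraries; where 1 library was left in a group, it was assumed to vary like the other group. Members with an unadjusted p under 0.05 ranged from 4 to 6 over all settings, and their median change from -0.26 to -0.14. Genes called were 1 with no filter, 23 after quantile normalisation, 126 after median centring, 11 with a variance prior without trend and 138 with a robust prior, the last added after seeing the data; none of these settings called a member. List genes called were 0 with no filter, and 3 (Lif, Ptx3 and Cp) both after median centring and with the robust prior. Of all calls 53.7% were higher in GSK, 37.1% without DMSO 2. Same-numbered libraries deviated together (correlation 0.43), but 2 pairs that share only a number do not establish a pairing; with the replicate block, 1374 genes, 4 members (Cd55, Cfb, Lcn2 and Saa3) and 24 list genes were called. Signs turned after quantile normalisation for C3 (0.012) and C1s1 (0.044). With a library left out they turned within these ranges: C3 -0.21 to 0.064, C1s1 -0.10 to 0.096, C7 -0.0052 to 0.015, C8g -0.032 to 0.018, Colec12 -0.0028 to 0.084 and C1s2 -0.15 to 0.027, none of them called. The span of levels per kilobase was 8.18 with the union of exons and 7.64 with the longest transcript. The cause of these differences was not tested. Depth is unknown, so low genes such as C1q and the complement receptors cannot be called absent.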
